A study of Sus scrofa domesticus and Sus scrofa with 18 samples.

Results

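The spleen of newborn Rongchang pigs was compared with the spleen of 2-year-old pigs of the same breed, which gives the net change of the organ's transcriptome after birth. The comparison used 6 of the 18 libraries of the series, chosen by stage alone. B0d holds 3 libraries of spleen taken just after birth, and A2Y holds 3 libraries of spleen taken at 2 years of age. The Rongchang pig is a Chinese domestic breed, and all animals of the series were females with 1 library each, for which no treatment is named. The other 12 libraries come from fetuses 55 days before birth (E55d), from pigs 30 days after weaning (W30d) or aged 180 days (A180d), and from 2-year-old Wild Boars (WB), and they served to estimate the spread and to show the levels between both ages.

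The spleen filters blood, and its red pulp contains macrophages that clear old red cells and recycle their iron. Its white pulp is lymphoid tissue, where T cells and B cells gather around arteries and in follicles and where antibody responses to blood-borne antigen begin. Before and around birth the spleen of many mammals also makes blood cells, a task that later rests mainly with the bone marrow. In whole tissue, a lower proportion of cells of a type and less RNA per cell cannot be told apart, which applies to every result given here.

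Transcripts were measured by strand-specific RNA sequencing as FPKM, a level per transcript length scaled to the fragments mapped in a library, and all values are given as log2(FPKM + 1). At high FPKM a difference of 1 on this scale is a 2-fold change, and the scale understates the change of a gene with low FPKM. Protein-coding genes of the same group correlated with Pearson's r of 0.936 to 0.976 within B0d and 0.972 to 0.975 within A2Y, against 0.881 to 0.903 between the groups (over genes, which are not independent replicates). All libraries differed from each other in their values. TLX1 and NKX2-3, transcription factors of the spleen, were at 3.16 to 4.28 and at 2.80 to 3.75 in the 6 libraries. The most abundant identifier took 45.3 to 49.8% of the FPKM of the protein-coding table at B0d and 41.3 to 53.6% at A2Y. By the study's sample list every A2Y library was sequenced more deeply than any B0d library, and the reads behind a single value are unknown.

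One library stood apart. B0d replicate 3 had albumin (ALB) at 9.05, where the other B0d libraries had 0.13 and 0.45, and transferrin (TF) at 7.43 against 0.67 and 0.65. The 3 liver markers measured (ALB, TF and APOA1) summed to an FPKM of 855.8 in it, to 50.1 and 50.5 in the other B0d libraries and to 42.5 to 57.4 at A2Y. The mean levels of red cell genes and of cell cycle genes in it were also the lowest of the 3 B0d libraries. The part of this library in the results was not tested beyond leaving it out. Values without it are given for the called totals and for the list counts that it moves.

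All 12913 protein-coding genes passed the filter on low values, which asked for 3 or more libraries with an FPKM over 0.1. Of them, 3894 (30.2%) differed between B0d and A2Y at an adjusted p of at most 0.05 (limma, Benjamini-Hochberg). In all, 2472 genes (19.1%) rose and 1422 (11.0%) fell. A change of at least 1 was found for 836 of the rising and 500 of the falling genes, and a change of at least 2 for 131 and 88. The median change over all genes was 0.08. After scaling of the libraries by a median ratio over protein-coding genes, 4091 genes were called, of which 49.5% rose, in place of 63.5%, so the excess of rising genes depends on the scaling. The libraries of both groups did not overlap for 3658 of the called genes, and over all genes tested every A2Y library was above every B0d library for 25.9% and below for 15.8%.

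For lncRNAs the balance lay the other way. Of 14129 lncRNAs tested among 15040, 2554 (18.1%) were called, of which 739 (5.23%) rose and 1815 (12.8%) fell. A change of at least 1 was reached by 117 of the rising and 340 of the falling lncRNAs. The groups did not overlap for 2304 of the called lncRNAs, and over all lncRNAs tested every A2Y library was above every B0d library for 10.2% and below for 18.5%. Rising lncRNAs made up 28.9% of the calls, and 41.7% after scaling by the median ratio of lncRNAs, an alternative chosen after the values were seen that left 1377 calls. Without B0d replicate 3, 3533 protein-coding genes and 2047 lncRNAs were called. Without A2Y replicate 1, 1567 lncRNAs were called, and with only the 6 libraries in the model 353 were.

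**Figure D1:**
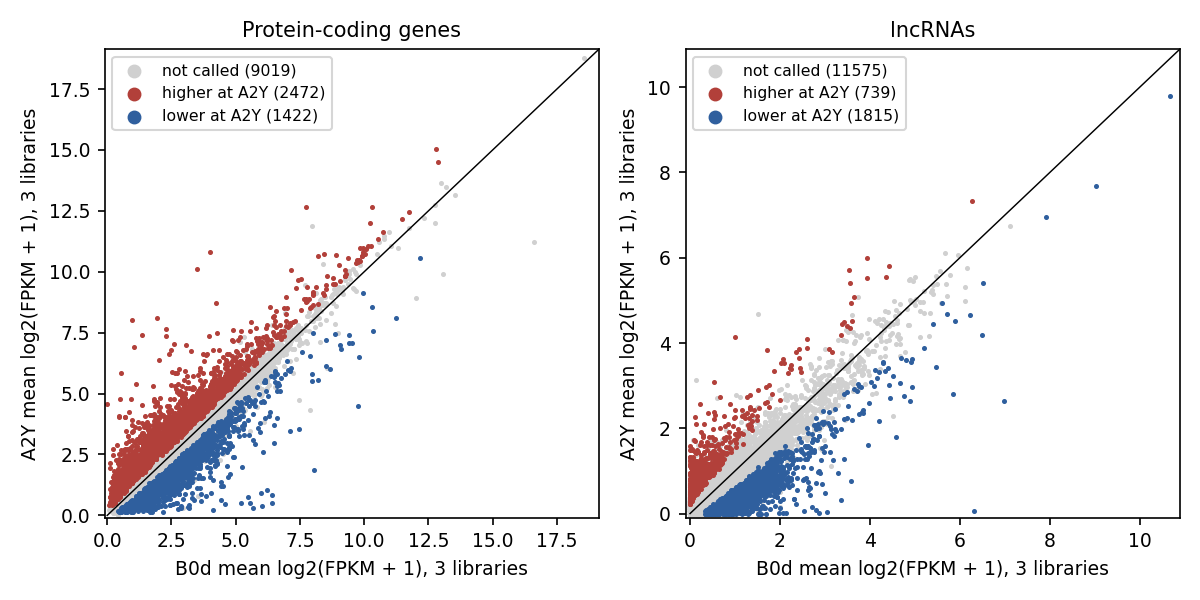
Mean log2(FPKM + 1) of 3 B0d libraries (x axis) against that of 3 A2Y libraries (y axis), 1 point per protein-coding gene (left) or lncRNA (right); red points rose and blue points fell at an adjusted p of at most 0.05, grey points were not called, and the line marks equal levels. Rising genes (2472) outnumber falling genes (1422), whereas falling lncRNAs (1815) outnumber rising ones (739).

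Of the 10 genes with a symbol that fell most, 4 were on a list of red cell genes (SLC4A1, HBM, RHAG and EPB42). SLC4A1, the band 3 anion exchanger of the red cell membrane, was at 6.75, 6.84 and 5.64 at B0d and at 0.36, 0.25 and 0.91 at A2Y, a fall of 5.91 on the log2 scale (SE 1.13, adjusted p = 0.00113). Each newborn library stood far above each adult one. RHAG, the glycoprotein that carries the Rh complex, was at 6.06, 6.02 and 4.64 and then at 0.46, 0.27 and 0.79. RHCE, an Rh blood group protein, fell by 5.64, and EPB42, which links band 3 to the membrane skeleton, fell by 4.67. HBM, a haemoglobin subunit, kept clear levels in adults, with 10.16, 10.10 and 8.97 at B0d and 5.54, 2.16 and 5.80 at A2Y. CA2, a carbonic anhydrase, fell by 4.74 and TRIM10 by 3.91.

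TMCC2 fell by 5.19, from 6.59, 6.83 and 5.22 to 0.92, 0.62 and 1.53. TRMO, a tRNA methyltransferase, fell by 5.56, and SPINK4, a peptidase inhibitor, fell by 5.06 and was listed at 0 in 1 A2Y library. In each of the 10 genes with a symbol that fell most, B0d replicate 3 was the lowest newborn library. That it was above every adult library follows from the selection, since only called genes with separate groups were ranked.

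Of the 10 genes with a symbol that rose most, MZB1 was on the list of plasma cell genes, and CCL5 and GNLY were on that of cytotoxic and NK cell genes. MZB1, a chaperone of antibody-secreting B lineage cells, was at 2.36, 2.40 and 3.0 at B0d and at 7.44, 7.13 and 6.49 at A2Y, a rise of 4.43 (SE 0.33, adjusted p = 6.69e-07). CCL5, a chemokine made by activated T cells and NK cells, was at 2.65, 3.75 and 2.75 and then at 7.62, 6.71 and 6.63. GNLY, the cytolytic protein granulysin, rose by 3.39 from near the floor, with 0.71, 1.1 and 0.78 against 5.21, 4.0 and 3.53. NUGGC, a GTPase of germinal centre B cells, went from 0.29, 0.54 and 0.59 to 4.47, 3.88 and 3.91. The T cell and NK cell receptors CD96 and SLAMF6 rose by 3.18 and 2.74.

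HLA-DRA, a chain of the MHC class II molecule that presents antigen to helper T cells, was already high at birth, at 7.16, 7.03 and 7.21, and reached 10.25, 9.93 and 10.03 in adults. CLEC4F, a lectin known from macrophages, rose by 3.59, from 0.95, 0.14 and 0.32 to 3.83, 4.03 and 4.31. UBD, a ubiquitin-like protein that cytokines induce, rose by 3.19 and RARRES1 by 2.88. The newborn and adult libraries were separate in each of these 10 genes by selection, since called genes with overlapping groups were left out of the ranking. Of the 20 largest rises of all identifiers 18 had no symbol, against 7 of the 20 largest falls.

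**Figure D2:**
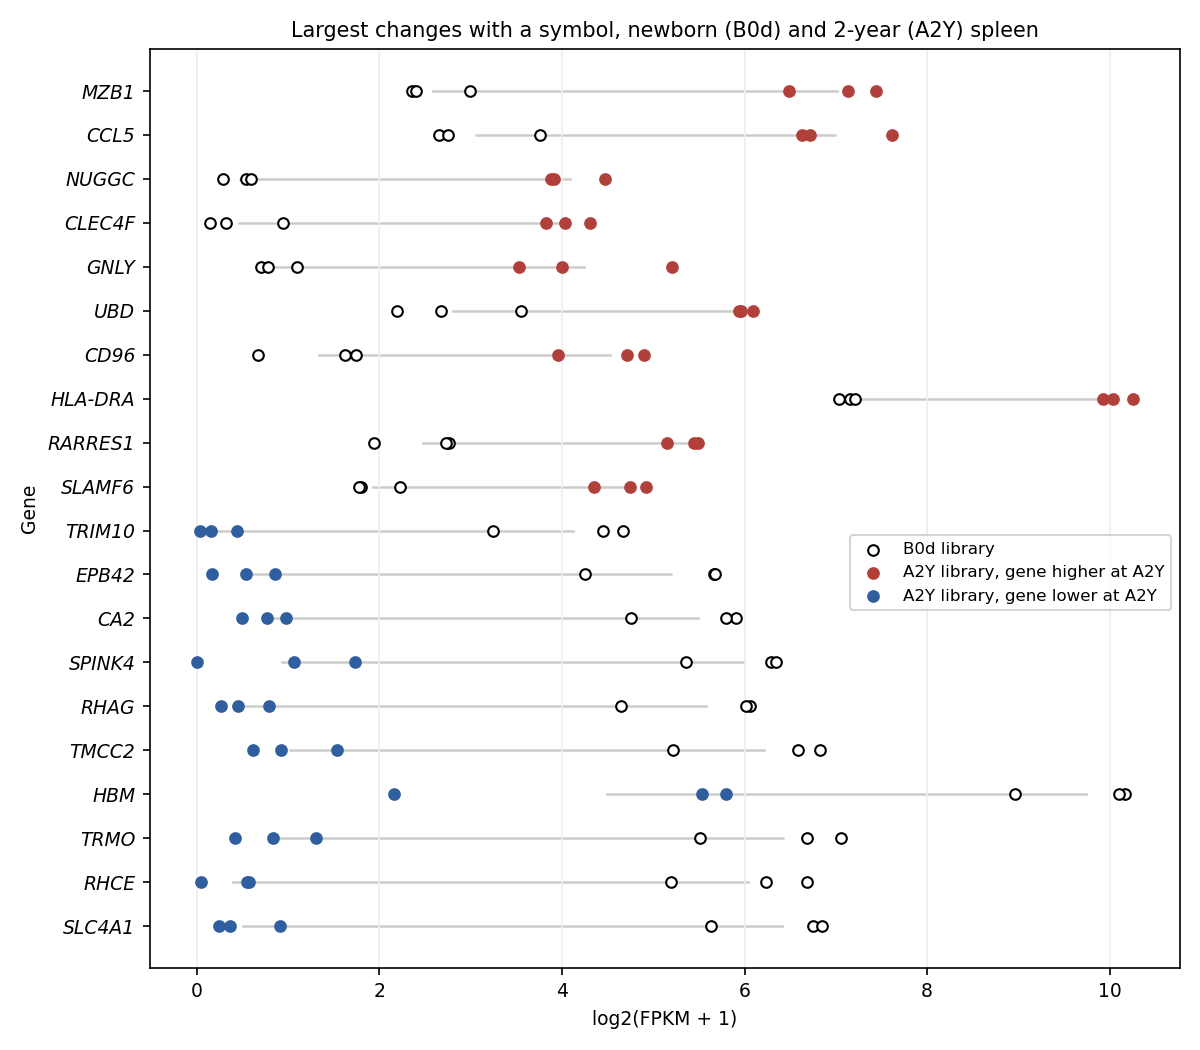
Log2(FPKM + 1) in each library for the 10 genes with a symbol that rose most and the 10 that fell most (open circles, 3 B0d libraries; filled circles, 3 A2Y libraries, red for genes that rose and blue for genes that fell; grey lines join the group means). SLC4A1 lies at 5.64 to 6.84 in newborns and at 0.25 to 0.91 in adults, and MZB1 at 2.36 to 3.0 and at 6.49 to 7.44.

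Gene lists for the cell types and processes of the spleen were read next. A list is described by how many of its measured members were called, read against the 19.1% of all genes that rose and the 11.0% that fell, and by its median change, read against 0.08. No list was tested as a whole, and the lists were drawn up with earlier results of these data known. Of 342 listed symbols, 186 were matched in the protein-coding table. Without B0d replicate 3, 8 red cell genes and 10 matrix genes fell. In that fit 13 T cell genes, 12 interferon response genes and 4 lymphoid organisation genes rose. These numbers are to be set beside the counts below.

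Red cell genes fell furthest. Of 9 measured, 7 fell and 0 rose, with a median change of -3.66, and no member had overlapping groups. Besides the membrane genes above, NFE2, a transcription factor of red cells and platelets, fell by 3.25, and TFRC, the receptor through which cells take up transferrin-bound iron, fell by 3.66, from 7.37, 7.43 and 6.52 to 3.81, 3.07 and 3.45. EPOR, the erythropoietin receptor, was at 3.55, 3.38 and 2.33 and then at 1.66, 1.86 and 1.97, a difference of -1.26 with an adjusted p of 0.08, and it was called without B0d replicate 3. HBB, the beta subunit of haemoglobin, stood at 13.20, 13.55 and 12.44 in newborns and at 10.91, 7.38 and 11.39 in adults. Its difference of -3.17 (SE 2.99) was not called (adjusted p = 0.45). HBB is listed at 0 in 3 libraries of E55d and W30d, which enter the shared estimate of the spread, and it was called when the 6 libraries were fitted alone (adjusted p = 0.046). Globin genes are similar in sequence, and the split of reads between them is uncertain.

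The enzymes that make haem fell with them. This list was added after the values had been seen. All 6 enzymes measured, of 8 in the list, fell, with a median of -2.52. UROD, a decarboxylase of the pathway, was at 6.47, 7.15 and 5.79 at B0d and at 4.26, 3.57 and 3.34 at A2Y. FECH, which inserts iron in the last step, fell by 2.21 and is also counted in the red cell list. Platelet genes fell too, with 3 of 4 lower and a median of -1.43. GP1BB, a part of the platelet receptor for von Willebrand factor, went from 4.04, 3.81 and 3.72 to 0.57, 1.01 and 0.86, whereas P2RY12, a receptor for ADP that is also found on other cells, rose by 1.11.

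Genes of dividing cells were lower in adults. Of 19 cell cycle genes 17 fell and 0 rose, with a median of -1.15. CDK1, the kinase that drives entry into mitosis, was at 5.60, 5.74 and 4.61 at B0d and at 4.0, 3.04 and 2.85 at A2Y. CENPF, a kinetochore protein, fell by 2.06 and TPX2, a spindle protein, by 1.53. TOP2A, which untangles DNA, differed by -0.98 (adjusted p = 0.07), and its groups overlapped. The count of falling genes depended on single libraries: it was 8 without B0d replicate 1, 8 without B0d replicate 2, 9 without A2Y replicate 3 and 19 without B0d replicate 3. A2Y replicate 1 had the highest mean level of this list among adults. Of 9 DNA replication genes 5 fell, among them MCM2 by 1.49 and MCM4 by 1.22, subunits of the replicative helicase, and E2F1, an activator of S phase genes, by 1.40.

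T cell genes rose almost throughout. Of 15 measured, 14 rose and 0 fell, with a median of 1.99. CD3D, a chain of the T cell receptor complex, was at 3.54, 3.48 and 4.27 at B0d and at 6.78, 5.90 and 6.39 at A2Y. CD247, the zeta chain of the same complex, rose by 2.72, and LCK, its kinase, by 2.09. The coreceptors of cytotoxic T cells rose by 2.65 (CD8A) and 2.23 (CD8B), and CD4, that of helper T cells, rose by 1.29. CCR7, which guides naive T cells into lymphoid tissue, was already at 3.09, 2.66 and 3.23 in newborns and differed by 0.52 (adjusted p = 0.11).

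Cytotoxic and NK cell genes rose in 9 of 9 cases, with a median of 2.27. PRF1, the pore-forming perforin, was at 0.52, 0.80 and 0.62 in newborns and at 3.06, 2.21 and 2.31 in adults. GZMK, a granzyme, went from 0.27, 0.21 and 0.16 to 2.99, 2.10 and 2.36. GZMA showed the widest adult spread of them, at 4.16, 2.41 and 1.53 after 0.32, 0.98 and 0.71. A2Y replicate 1 was the highest adult library for T cell genes as a list and for cytotoxic genes as a list. Without it, 12 T cell genes and 8 cytotoxic genes were called.

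B cell genes rose in 9 of 10 cases, with a median of 1.43. MS4A1, the CD20 antigen of mature B cells, was at 3.85, 3.16 and 3.85 at B0d and at 6.08, 5.80 and 5.85 at A2Y. CD79B, a signalling chain of the B cell receptor, rose by 2.23, and CXCR5, which guides B cells to follicles, by 1.42. VPREB3, which belongs to B cell precursors, was the member that was not called, with 1.17, 1.03 and 1.13 before 1.13, 1.29 and 1.35. Among 4 plasma cell genes MZB1 and XBP1, a transcription factor of secretory cells, rose, the latter by 1.38. PRDM1, the master regulator of plasma cells, differed by 0.43 (adjusted p = 0.053) with separate groups, and SDC1 by 0.40 (adjusted p = 0.29) with overlapping ones.

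Genes of antigen presentation rose in 4 of 7 cases, with CIITA, the activator of MHC class II genes, at 1.41, 1.47 and 2.34 before 3.71, 3.53 and 3.17. MHC class II genes themselves, collected after the values had been seen, rose in 6 of 6 cases by 1.46 to 2.94. SLA-DQB1 was at 4.63, 5.08 and 4.95 at B0d and at 7.65, 7.93 and 7.29 at A2Y, and SLA-DOA rose by 2.61. HLA-DOB rose by 1.46, with 1.01 in A2Y replicate 3 and 2.71 in A2Y replicate 1, and without the latter it was not called (adjusted p = 0.062). These genes are similar and vary between animals, so that the split of reads among them is uncertain. XCR1, the chemokine receptor of cross-presenting dendritic cells, rose by 1.23 and FLT3, a growth factor receptor of dendritic cells, by 1.01.

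Of 14 interferon response genes 11 rose and 0 fell, with a median of 1.22. RSAD2, the antiviral protein viperin, was at 0.82, 0.58 and 0.16 in newborns and at 2.94, 2.64 and 2.49 in adults. IFIT2 rose by 1.85 and IFI44L by 1.64.

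**Figure D3:**
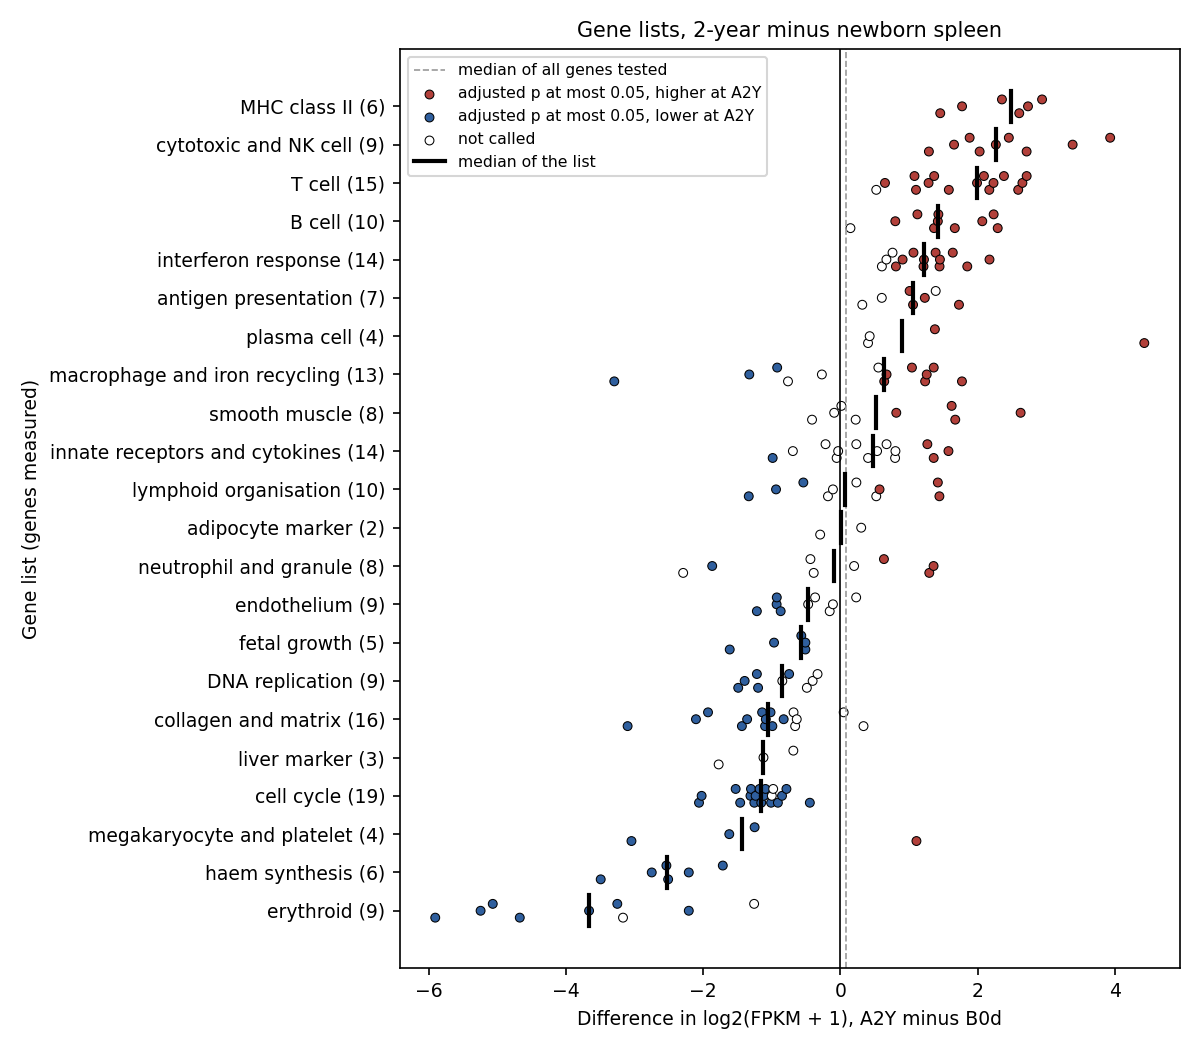
Difference in log2(FPKM + 1), A2Y minus B0d (x axis), for each measured member of each gene list (y axis, with the number measured); red and blue points were called higher and lower at an adjusted p of at most 0.05, open points were not called, black bars are list medians and the dashed line is the median of all genes tested, 0.08. The erythroid median lies at -3.66 and the cytotoxic and NK cell median at 2.27.

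Macrophage and iron recycling genes moved in both directions, with 7 of 13 higher, 3 lower and a median of 0.64. The counts were 4 and 1 without B0d replicate 2, 5 and 1 without A2Y replicate 3, and 7 and 1 without B0d replicate 3. CP, the ferroxidase ceruloplasmin, showed the greatest change of the list. It was at 4.32, 5.61 and 3.56 at B0d and at 1.36, 1.01 and 1.23 at A2Y, a fall of 3.30 (adjusted p = 7.28e-05). Its E55d libraries, at 0.02 to 0.05, enter the shared estimate of the spread. The SD of CP within B0d alone was 1.04, so the adjusted p understates the spread of the newborns. FTL, the light chain of the iron store ferritin, went from 10.08, 10.34 and 10.26 to 12.01, 11.92 and 12.09. SPIC, a transcription factor of red pulp macrophages, rose by 1.04, from 6.76, 6.4 and 7.66 to 8.01, 7.82 and 8.13. VCAM1, an adhesion molecule of these macrophages and of vessels, rose by 1.26 and CD68, a lysosomal protein of macrophages, by 1.36. MARCO, a scavenger receptor, fell by 1.33, with A2Y replicate 3 at 5.46 below the other adults at 7.19 and 7.0. It was not called without that library (adjusted p = 0.17), nor without B0d replicate 2 (0.13) or B0d replicate 3 (0.06). CD14, a receptor for lipopolysaccharide, fell by 0.92 (adjusted p = 0.041), and that call was lost without B0d replicate 2 or 3 or any 1 of the A2Y libraries.

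Connective tissue genes were lower in adults, with 11 of 16 matrix genes lower, 0 higher and a median of -1.05. ELN, elastin, was at 4.29, 5.02 and 5.03 at B0d and at 1.63, 1.68 and 1.73 at A2Y, a fall of 3.10 (SE 0.25, adjusted p = 1.31e-06). COL6A3 fell by 2.10, COL4A2, a basement membrane collagen, by 1.93, and the fibrillar collagen COL3A1 by 1.1. FN1, fibronectin, differed by 0.05 (adjusted p = 0.96), with B0d replicate 3 at 5.09 against 3.11 and 3.46. Smooth muscle genes took another course: 4 of 8 rose and 0 fell (3 and 1 after scaling). CNN1, calponin, was at 3.14, 2.48 and 3.65 at B0d and at 5.30, 5.40 and 6.45 at A2Y, and MYH11, smooth muscle myosin, rose by 1.68, while ACTA2, smooth muscle actin, stayed between 7.34 and 8.2 in all 6 libraries.

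Of 9 endothelial genes 4 fell and 0 rose. KDR, a receptor for vascular growth factor, was at 4.0, 4.16 and 3.63 at B0d and at 2.68, 2.83 and 2.64 at A2Y, and ESAM fell by 0.87. PECAM1, which marks endothelium in general, differed by -0.47 (adjusted p = 0.086). All 5 genes of fetal growth that were measured, of 14 in the list, fell. IGF2BP2, an RNA-binding protein of fetal tissues, was at 2.15, 1.91 and 1.91 and then at 0.28, 0.44 and 0.40, and GRB10, an imprinted growth inhibitor, fell by 0.97. MEST fell by 0.57 (adjusted p = 0.044), and that call was lost in 5 of the 6 fits that leave out 1 library (all except that without B0d replicate 3).

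Genes that organise lymphoid tissue were split, with 3 of 10 higher, 3 lower and a median of 0.06. The median ran from -0.16 to 0.31 over the other settings. CXCR5 and CCR7, counted above with the B cell and T cell genes, are also on this list. TNFSF13B, the B cell survival factor BAFF, rose by 1.44, from 1.23, 1.86 and 2.28 to 3.25, 3.13 and 3.32. CCL19, a chemokine that attracts T cells and dendritic cells, fell by 1.34, with 6.23, 6.30 and 7.55 in newborns and 5.61, 5.12 and 5.34 in adults. TLX1, a transcription factor that the spleen needs to form, was at 4.03, 4.28 and 4.26 at B0d and at 3.33, 3.16 and 3.26 at A2Y, so it was lower but still present in adults. NKX2-3, a further spleen transcription factor, fell by 0.54 (adjusted p = 0.048), a call lost in 5 of the 6 fits that leave out 1 library (all except that without B0d replicate 3).

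Neutrophil genes had a median of -0.09, which ran from -0.46 to 0.23 over the other settings. Of 8 measured, 3 rose (ITGAM by 1.36, CEBPE by 1.30 and MMP9 by 0.64) and LTF, lactoferrin, fell by 1.87 (adjusted p = 0.048), a call lost without any 1 of B0d replicates 2 and 3 and the A2Y libraries. S100A8 was at 4.62, 6.18 and 7.56 at B0d and at 3.94, 4.34 and 3.20 at A2Y, with separate groups and an adjusted p of 0.054. Among 14 innate receptors and cytokines, TLR1, IL16 and IL18 rose by 1.58, 1.36 and 1.27 and NLRP3 fell by 0.99, and without B0d replicate 3 the genes that rose were 5 in number. IL18 overlapped between the groups, with B0d replicate 3 at 5.58 and the other newborns at 3.84 and 3.73, and its call was lost without B0d replicate 1 or 2 or A2Y replicate 1. The 3 liver markers and 2 adipocyte markers measured were not called, and of the markers of pancreas and skeletal muscle 0 were matched.

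The direction of these changes was then read in W30d and A180d, as a description. These groups lie outside the contrast but entered the shared estimate of the spread. Calls between them are therefore not independent of those between B0d and A2Y. Of the 2472 genes that rose from B0d to A2Y, 1813 (73.3%) were higher at A180d than at W30d, and 690 of them passed the test there, against 91 that passed in the opposite direction. Of the 1422 genes that fell, 1090 (76.7%) were lower at A180d, with 561 called lower and 34 called higher. Over all genes 49.9% were higher at A180d, and 28.1% were called in either direction. The median level of the rising genes went from 2.36 at B0d over 2.88 (W30d) and 3.18 (A180d) to 3.34 at A2Y, and that of the falling genes was 2.49, 2.05, 1.56 and 1.49.

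The lists followed separate courses between both ages. The mean level of the red cell genes was 6.68 ± 0.67 in the newborns, 5.22 ± 1.74 in the W30d group, 3.20 ± 0.21 at A180d and 2.86 ± 0.60 after 2 years (SD, n = 3 each). W30d replicate 2 was at 3.23, below its group. The W30d mean includes HBB, which was listed at 0 in W30d replicates 1 and 3 and was at 11.06 in replicate 2. Every other red cell gene measured was higher in W30d replicates 1 and 3 than in any newborn library, so the lower W30d mean does not describe them. Cell cycle genes were at 3.09 ± 0.48 at B0d, at 3.78 ± 0.75 at W30d, at 2.28 ± 0.32 at A180d and at 1.90 ± 0.38 at A2Y (SD, n = 3 each). W30d replicate 2 was at 2.92 for this list, below the other W30d libraries at 4.11 and 4.31. The T cell and B cell lists were at or above their A2Y mean by A180d, whereas matrix genes stood at 3.46 at W30d, between 4.07 at B0d and 2.97 at A2Y.

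**Figure D4:**
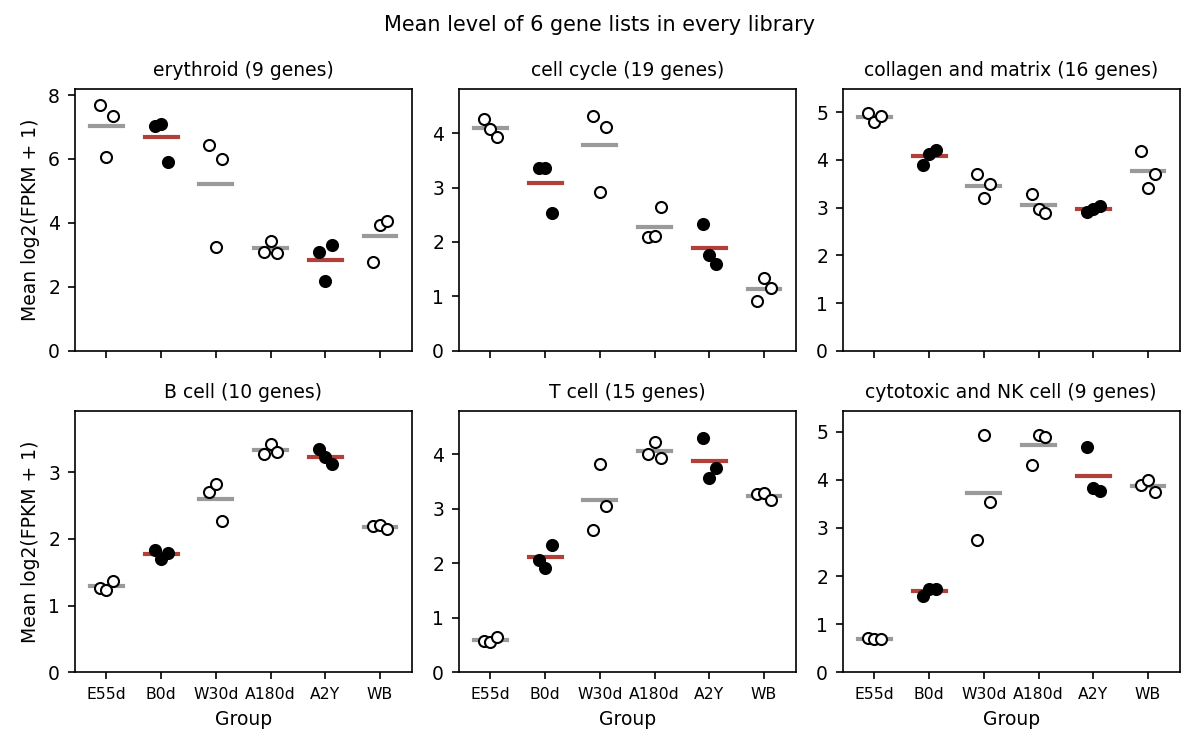
Mean log2(FPKM + 1) of the measured members of 6 gene lists (y axis, from 0) in every library of the 6 groups (x axis); filled circles are the B0d and A2Y libraries compared, open circles the other libraries, and bars group means. Red cell genes go from 5.91 to 7.11 in B0d libraries to 2.18 to 3.30 in A2Y libraries, while W30d replicate 2 lies at 3.23. HBB, a red cell gene, is listed at 0 in W30d replicates 1 and 3, which lowers their means.

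lncRNAs are transcripts of more than a minimum length without coding potential, and these were assembled and named by the study. The number detected depended on the limit set. At an FPKM above 0, 12646, 12629 and 12284 lncRNAs were detected at B0d and 12905, 13359 and 13110 at A2Y, a difference of 605 (two-sided exact permutation test, p = 0.1, the smallest that 3 against 3 libraries allow). At an FPKM above 0.1 the difference was 163 (p = 0.7 in the same exact test), and above 1 it turned to -1115 (p = 0.3, exact). A2Y had the deeper libraries, and the part of depth in the first count was not tested. The median level was 0.64 ± 0.10 at B0d and 0.51 ± 0.10 at A2Y (SD, n = 3), a difference of -0.13 with overlapping libraries (exact permutation test, p = 0.2).

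Presence shifted in both directions. In all, 250 lncRNAs were listed in 0 of 3 B0d and in 3 of 3 A2Y libraries, and 98 the other way round. With an FPKM above 0.1 as the limit the numbers were 272 and 270, so the excess on the adult side was present only without that limit. Most of these lncRNAs were scarce. At the limit of 0.1 the median of their mean FPKM was 0.36 over A2Y for those gained and 0.53 over B0d for those lost. The 8258 lncRNAs present in every library of both groups had 0.70 over A2Y, which compares with the gained ones only.

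The greatest fall was that of TU81265, at 6.61, 6.18 and 6.16 at B0d and at 0.09 and 0.07 in 2 of the A2Y libraries and listed at 0 in replicate 2 (a fall of 6.26, SE 1.49, adjusted p = 0.0077). It did not follow age in the other libraries: it was at 6.45 and 6.55 in W30d replicates 1 and 2 and listed at 0 in W30d replicate 3, and at 7.10 in 1 WB library. TU18965 was at 7.37, 7.14 and 6.45 at B0d and at 2.58, 2.75 and 2.59 at A2Y. At W30d it was at 7.83, 3.67 and 7.31, with replicate 2 closer to adults. TU73751 had the same shape, from 3.83, 3.49 and 2.77 to 0.28, 0.42 and 0.24, with 0.76 in W30d replicate 2. TU47166 went from 5.68, 6.08 and 5.79 to 2.66, 2.61 and 3.12, and at W30d its 3 libraries lay between 4.41 and 4.99.

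TU8312 was high at B0d alone. It was at 3.48, 3.34 and 2.34 at B0d and at 0.02 and 0.11 in A2Y replicates 2 and 3, with replicate 1 listed at 0. The fall was 3.01 (SE 0.20, adjusted p = 1.29e-07), and no library of the other 5 groups exceeded 0.15. These libraries near 0 enter the shared estimate of the spread. The SD within B0d alone was 0.62, so the SE and the adjusted p understate the spread of the newborns.

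Rising lncRNAs changed less. TU67200 went from 1.00, 0.53 and 1.49 to 4.64, 3.91 and 3.88, a rise of 3.14 (SE 0.47, adjusted p = 0.000316). TU78568 was well expressed from birth, at 3.59, 3.27 and 3.71, and reached 5.62, 5.96 and 5.60. TU28279 was listed at 0 in 1 newborn library and was at 0.14 and 0.50 in the others, before 2.71, 2.08 and 2.91 in adults. TU50529 was listed at 0 in B0d replicates 2 and 3 and was at 1.60 in replicate 1, against 3.47, 3.04 and 2.76 at A2Y. TU19335 rose by 2.17 from 0.15, 0.06 and 0.09.

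**Figure D5:**
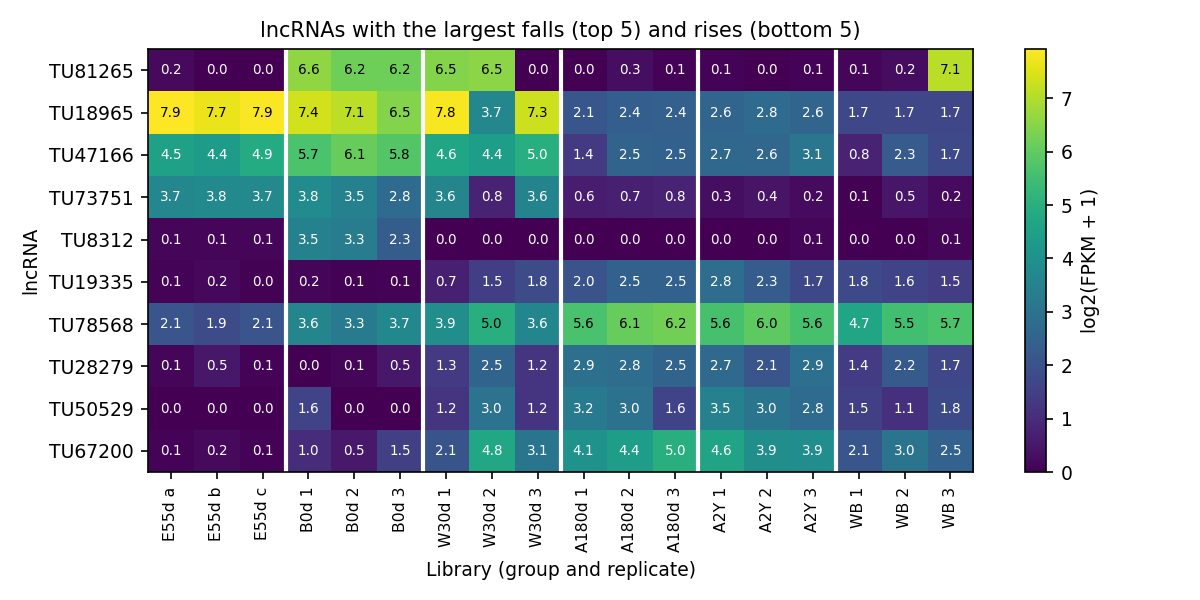
Log2(FPKM + 1) of the 5 lncRNAs that fell most and the 5 that rose most from B0d to A2Y (y axis) in each of the 18 libraries (x axis, by group and replicate), as colour and as a number to 1 decimal. TU8312 is at 2.34 to 3.48 in B0d libraries and at most 0.15 in any other.

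The direction of the lncRNAs was read in W30d and A180d as well, again as a description. Of the 1815 that fell, 94.4% were lower at A180d than at W30d, but so were 78.6% of all lncRNAs tested. Of the 739 that rose, 55.9% were higher at A180d, against 19.6% of all lncRNAs tested. The median level of the falling lncRNAs went from 1.16 at B0d over 0.55 (W30d) and 0.13 (A180d) to 0.40 at A2Y. Over all lncRNAs tested it was 0.65, 0.47, 0.21 and 0.53 at these stages, so that both were lower at 180 days than at 2 years. At E55d the falling lncRNAs had a median level of 1.09, against 0.63 over all lncRNAs.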

How the data were processed

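The authors mapped paired-end reads of strand-specific libraries with TopHat to a pig genome with replaced sex chromosomes (Sscrofa10.2 per the submitters' processing notes), assembled transcripts with StringTie 1.3.3, filtered lncRNAs with Cuffcompare of Cufflinks 2.2.1 and tests of coding potential, and quantified both classes as FPKM. The deposited values are on a log2 scale, log2(FPKM + 1), in 1 table per class with libraries as columns. Empty cells of the lncRNA table were read as FPKM 0. Whether a further scaling was applied is not given in the sources used here. Read counts, on which the authors ran DESeq2, were not used here, so that no counting interval is given. The reads behind a value were not recovered: at most 2.24% of low lncRNA values shared a single ratio between 2 libraries.

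Design and file unit differed, since FPKM was assumed in the design, and the log2 values were used as deposited. A feature entered the test if 3 or more of the 18 libraries had an FPKM over 0.1. The test was limma 3.58.1 in R 4.3.3, as 1 model of 18 libraries in 6 groups with a mean-variance trend, Benjamini-Hochberg adjustment over all features of a table and a threshold of 0.05. Values of single libraries were compared by exact permutation tests written in Python 3.11.15 with numpy 2.4.6. Other tools were pandas 2.3.3, scipy 1.17.1 and, for the figures, matplotlib 3.10.9. The limma step was tested on simulated data. Symbols came from a later gene name table, which matched 8215 of 12913 identifiers (63.6%). Coordinates and sequences are not used here.

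Alternatives were a pseudocount of 0.1, an FPKM above 1, no filter, scaling by the median ratio of protein-coding genes or of lncRNAs, no trend, only the 6 libraries, a replicate block and each library left out. Named were the 10 genes with a symbol that rose or fell most with separate groups, the 5 lncRNAs that did so, and in each list the first member and those that changed most. Further list members were named after their values were seen, as were the haem synthesis and MHC class II lists. Members and lists were chosen with earlier results of these data known.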

Additional observations from a re-analysis of the deposited data

How the results depend on the processing

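Of 114 named genes and lncRNAs, 86 kept their direction and their side of the threshold under every alternative run, 19 lost a call under at least 1, 6 gained one, and 3 turned direction, none of which was called: TF and ALB without B0d replicate 3, and ACTA2 without that library or without A2Y replicate 1. With 1 library left out, the change of TF ran from -2.25 to 1.14, that of ALB from -3.32 to 1.15 and that of ACTA2 from -0.29 to 0.16. The count of protein-coding genes was 2043 with a replicate block and ran from 2682 to 3533 when 1 library was left out. The count of lncRNAs was 353 with only the 6 libraries in the model and 1377 after scaling by lncRNAs, and it ran from 1567 (without A2Y replicate 1) to 3053 when 1 library was left out. With the replicate block 2 lncRNAs were called by limma, and 2460 had an unadjusted p of at most 0.05. The difference in lncRNAs detected ran from 487 to 715 and that of their median level from -0.18 to -0.07 without 1 library, and at an FPKM above 1 the former turned to -1115. The cause of these changes was not tested. Deviations from the group means correlated negatively for libraries of the same number (-0.17, -0.19 and -0.10 over protein-coding genes, and -0.13, -0.19 and -0.09 over lncRNAs). For libraries of different numbers the correlations ran from -0.001 to 0.18 and from -0.02 to 0.13. Features are not independent and each group has 3 libraries, so these correlations cannot show whether the numbers pair the animals. Under the block 15 named features lost their call and 3 gained one. FPKM values do not show depth, and differences near an FPKM of 0.1 are the least certain.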

Other observations

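Of the identifiers without a symbol, the 2 that rose most and the 2 that fell most were singled out after their values were seen. ENSSSCG00000030825 was at 1.64, 0.82 and 0.45 at B0d and at 8.41, 7.45 and 8.15 at A2Y, a rise of 7.03 (limma, adjusted p = 6.05e-07). ENSSSCG00000008939 went from 3.94, 4.22 and 3.84 to 10.88, 10.42 and 11.09, a rise of 6.79. The opposite course was taken by ENSSSCG00000009046, which fell by 6.15, and ENSSSCG00000015070, which fell by 5.37. In W30d replicate 2 the first of these falling genes was at 2.66, where the other W30d libraries had 9.61 and 9.57.

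The protein-coding table also listed 4 small nuclear or nucleolar RNAs, and they did not move together. SNORA53, a guide RNA of the nucleolus, was at 11.18, 11.47 and 11.08 at B0d and at 9.05, 8.60 and 6.70 at A2Y, a fall of 3.13 (adjusted p = 0.000194). SCARNA12, a guide RNA of Cajal bodies, rose by 1.79, from 8.34, 9.51 and 8.87 to 11.26, 10.78 and 10.05. SNORA74 and SNORD17 overlapped between the groups, with differences of 0.04 and 0.72 that were not called.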
